A study of Mus musculus with 7 samples.

Results

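The genes described here encode the kinases of the ERK1, ERK5 and JNK modules and the MAP2 kinases that activate ERK1 and the JNKs: Mapk3 (ERK1), Mapk7 (ERK5), Mapk8, Mapk9 and Mapk10 (JNK1, JNK2 and JNK3), Map2k1 and Map2k2 (MEK1 and MEK2), and Map2k4 and Map2k7 (MKK4 and MKK7). They were chosen by name: every array probe whose RefSeq transcript carries 1 of these 9 symbols was taken, which gave 16 probes of the 55681 on the array, for 9 of the 21154 genes named there. RNA came from the apex of 7 hearts of male C57BL/6 mice, 4 controls and 3 knockouts (KO), each hybridised to 1 array of the 1-colour Agilent type. All 7 mice were homozygous for a floxed p38α allele (p38α flox/flox, with loxP sites around exons 2 and 3 of Mapk14), and all received 500 µg of hydroxytamoxifen a day for 10 days from 6 weeks of age. All were then given angiotensin II, the pressor hormone that loads the heart, at 1.5 mg/kg/d for 48 h by osmotic minipump and were examined at 3 months. The KO mice also carried 1 copy of the α-MHC mercremer transgene, a tamoxifen-inducible Cre recombinase whose promoter is active in cardiomyocytes. The comparison is therefore KO with angiotensin II against control with angiotensin II, with no heart without the hormone. Only KO mice carried Cre, so the deletion of p38α and the presence of Cre cannot be told apart. The design text speaks of 4 hearts in each group; the other KO heart was not analysed here.

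MAP kinases stand at the end of relays in which a MAP3 kinase phosphorylates a MAP2 kinase, which in turn phosphorylates the MAP kinase. ERK1 is driven mainly by growth signals through Ras and Raf, the JNKs and p38 mainly by stress and cytokines, and ERK5 by growth factors, shear and oxidative stress. In the heart these relays have been studied for their parts in hypertrophic growth, cell survival and the response to load, and their activity is set by phosphorylation, which RNA levels do not measure.

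Mapk10 RNA was lower and Mapk7 RNA higher in the KO hearts. Mapk10, the JNK form found mostly in brain, heart and testis, was 2.65-fold lower, and Mapk7, a MAP kinase with a long carboxy-terminal tail that can activate transcription, was 1.64-fold higher. The other 7 genes did not pass the test. The count of 2 of 9 (22.2%) lies near the background, since 25.2% of all 22344 features tested passed at an adjusted p under 0.05 (limma): 10.2% of all features were higher and 15.0% lower in KO. The 7 KO and control hearts fell into separate ranges for 4 of the 9 genes (44.4%), against 39.0% of all features with a value on every array. The median difference over the 9 genes was -0.03 on the log2 scale, against -0.06 over all features. Across single probes, 3 of 16 passed, against 25.5% of all kept probes.

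Levels are given as log2 of the processed intensity minus the 75th percentile of the same array, so 0 is the level of a probe at that percentile, and 1 unit is a doubling of the intensity. A level belongs to its probe, and levels of different probes are not set against each other. All 16 probes were well above background on all 7 arrays and none was saturated. Between 46.0% and 49.7% of all probes were well above background on an array, with no separation of the groups. The third KO heart had the value nearest the control mean in 63.8% of the 8688 features whose groups did not overlap, the second in 28.0% and the first in 8.20%. Both probes of Mapk14 read slightly higher in KO (log2 differences of 0.22 and 0.18, limma adjusted p = 0.202 and 0.347); where in the transcript they lie was not determined, so they do not check the deletion of exons. None of the 3 probes for Esr1, the oestrogen receptor gene of which MerCreMer carries a part, stood well above background in any of the 4 controls. In the KO hearts 1 of them did in all 3 and read -0.82, 0.07 and 4.50. The other 2 did in none, with log2 differences of -0.18 and -0.14.

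Mapk10 was the 1 JNK gene of 3 that passed. Its brightest probe read 3.61, 3.31, 3.20 and 3.07 in the 4 control hearts and 1.56, 1.58 and 2.53 in KO hearts 1, 2 and 3. Every KO heart lay below every control heart, with KO hearts 1 and 2 at -1.73 and -1.72 from the control mean and KO heart 3 at -0.76. The means were 3.30 ± 0.23 (SD, n = 4) and 1.89 ± 0.56 (SD, n = 3), a log2 difference of -1.40 with a standard error of 0.26 and a 95% confidence interval from -2.01 to -0.80 (limma adjusted p = 0.0149). The two-sided exact permutation test, which takes all 35 splits of 7 hearts, gave p = 0.0286, the smallest this design can give. The adjusted p of the limma fit was 0.0764 without KO heart 1, with a difference of -1.24, and 0.0523 without KO heart 2, with a difference of -1.25. With each other heart left out it stayed under 0.05.

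A dimmer Mapk10 probe, made to another RefSeq transcript of the gene, read -1.95, -2.11, -2.34 and -2.37 in the controls and -3.37, -3.23 and -3.31 in the KO hearts. Here too all KO hearts lay below all controls, and the third KO heart lay with the other 2. The log2 difference was -1.11 with a standard error of 0.15 (limma over all kept probes, adjusted p = 0.0118; exact permutation p = 0.0286). With normexp in place of the scanner's background subtraction its difference shrank to -0.50, still at an adjusted p of 0.00925. Over the settings tried for this probe, the call was kept in 10 and lost in 3, with the direction unchanged. In 1 of these, without KO heart 1, its adjusted p was 0.0643.

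The promoter windows of Mapk10 and Mapk7 are shown because these were the genes that passed the test. Each holds the 250 bases before a transcription start in the RefSeq annotation of GRCm38.p6, written 5′ to 3′ along the gene, at chr5:103211335-103211584 (minus strand) for Mapk10 and at chr11:61494267-61494516 (minus strand) for Mapk7. The Mapk10 gene is annotated at chr5:102908547-103212604, so its window lies inside the gene and the start it precedes is not the outermost. Which start the measured Mapk10 RNA uses was not determined. Capitals mark a cyclic AMP response element (CRE, TGACGTCA) in Mapk10 and GC boxes (GGGCGG, on either strand) in Mapk7.
Mapk10: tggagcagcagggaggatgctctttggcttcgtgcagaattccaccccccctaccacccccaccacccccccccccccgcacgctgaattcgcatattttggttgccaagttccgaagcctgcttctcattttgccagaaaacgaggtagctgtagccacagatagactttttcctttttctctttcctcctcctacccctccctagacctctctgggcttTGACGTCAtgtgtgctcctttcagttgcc
Mapk7: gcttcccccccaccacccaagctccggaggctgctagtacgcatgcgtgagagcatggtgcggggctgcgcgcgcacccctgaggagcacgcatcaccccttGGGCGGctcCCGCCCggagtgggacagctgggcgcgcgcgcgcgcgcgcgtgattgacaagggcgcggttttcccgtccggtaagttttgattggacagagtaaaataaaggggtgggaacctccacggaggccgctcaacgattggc
The CRE of the Mapk10 window begins 29 bases before the start, and 1.55% of 32851 windows of this length hold one. The Mapk7 window holds 2 GC boxes in opposite orientation, a motif present in 32.7% of windows. Both windows were also searched on both strands for AP-1 (TGANTCA, in 6.75% of windows), the E-box (CACGTG, 6.02%), the TATA box (TATAAA, 12.4%), and the SRF site (1.47%) and MEF2 site (2.92%) by name, and held none of them. A second Mapk10 start in the annotation has its own window, which holds 2 TATA box matches and no CRE. Of the 9 genes, 8 have a window in the table and Mapk3 has none. A match is a run of letters, and binding of any factor was not measured.

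The other JNK genes did not pass. Mapk8, the broadly expressed JNK1, read -2.24, -2.67, -2.45 and -2.49 in the controls and -2.49, -2.34 and -2.64 in the KO hearts, so the KO values lay inside the control range. Its difference was -0.03 with a confidence interval from -0.37 to 0.32 (limma adjusted p = 0.908), and its other 2 probes gave -0.18 and -0.35 (adjusted p = 0.516 and 0.21). Mapk9, the broadly expressed JNK2, read 2.17, 2.03, 2.06 and 2.48 in the controls and 2.12, 2.18 and 2.04 in the KO hearts. These ranges overlap throughout, and the difference was -0.07 with a confidence interval from -0.42 to 0.27 (adjusted p = 0.727). A dimmer Mapk9 probe to another transcript leaned the other way, by 0.25 (adjusted p = 0.2).

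The ratio of 2 JNK probes within a heart shows whether the 2 genes changed unequally. Relative to the control mean, the log2 ratio of Mapk8 over Mapk10 was 1.71, 1.85 and 0.58 in the 3 KO hearts and lay between -0.21 and 0.20 in the controls. For Mapk9 over Mapk10 the KO hearts stood at 1.67, 1.71 and 0.61 and the controls between -0.33 and 0.53. Both ratios were thus higher in every KO heart than in any control, by 1.38 and 1.33 on average (exact permutation p = 0.0286 for each, 0.0714 after Benjamini-Hochberg adjustment over 5 ratios). Mapk8 over Mapk9 differed by 0.05 (exact permutation p = 0.83, also after adjustment), with the KO hearts inside the control range. None of the 5 ratios had an adjusted p under 0.05. With so few hearts that was out of reach unless several ratios reached 0.0286, the smallest p this design can give. The 2 ratios over Mapk10 share its values, so they are not separate results.

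**Figure D1:**
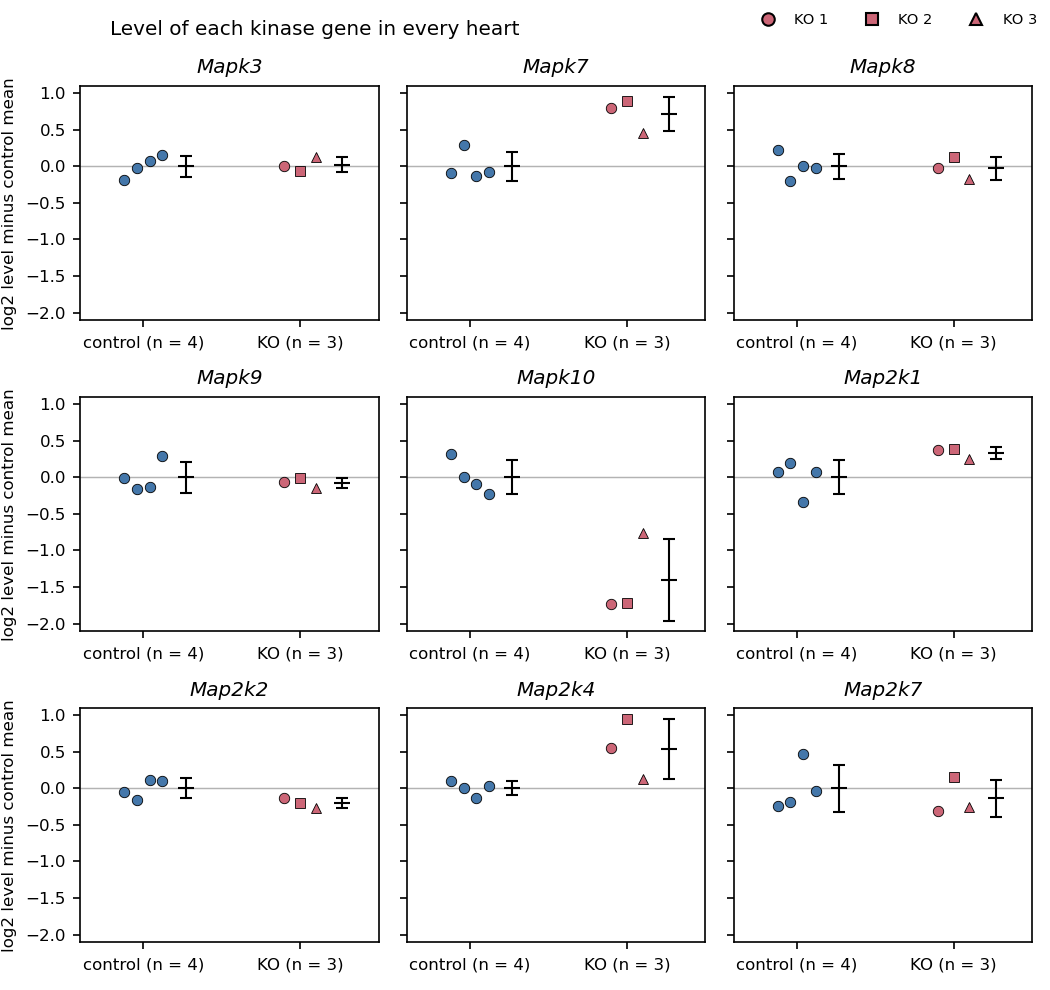
Level of the reported probe of each of the 9 kinase genes in every heart, as log2 level minus the mean of the 4 controls (vertical axis, log2 units). Points are hearts, with the KO hearts drawn as a circle, a square and a triangle for KO 1, 2 and 3, and bars show the group mean ± SD (4 controls, 3 KO). The KO hearts lie apart from all controls in Mapk10 (below) and in Mapk7, Map2k1 and Map2k4 (above), with KO 3 nearest the controls in each.

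Neither JNK activator passed the test, and only Map2k4 leaned clearly to 1 side, towards higher levels in KO. Map2k4 (MKK4), which can phosphorylate both JNK and p38, read 0.23, 0.14, 0.00 and 0.17 in the controls and 0.69, 1.08 and 0.26 in the KO hearts. All KO hearts were above all controls, but KO heart 3 exceeded the highest control by little and the KO hearts were spread over 0.82. The difference was 0.54 with a standard error of 0.20 and a confidence interval from 0.09 to 0.998 (limma adjusted p = 0.0765; exact permutation p = 0.0286). Without KO heart 3 it was 0.75 with an adjusted p of 0.0203. The other Map2k4 probe gave 0.41 (adjusted p = 0.0826), with KO heart 3 inside the control range.

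Map2k7 (MKK7), which acts on JNK, read -2.47, -2.40, -1.76 and -2.26 in the controls and -2.53, -2.06 and -2.47 in the KO hearts. The groups overlap, and the third control stood highest. The difference was -0.13 with a confidence interval from -0.62 to 0.35 (limma adjusted p = 0.652). The within-heart ratio of Map2k4 over Map2k7, relative to its control mean, was 0.86, 0.79 and 0.38 in the KO hearts and between -0.60 and 0.34 in the controls. It did not overlap between the groups and was higher in KO by 0.67 (exact permutation p = 0.0571, adjusted 0.0714).

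Mapk7, the ERK5 gene, has 1 probe. It read 1.84, 2.22, 1.80 and 1.84 in the controls and 2.73, 2.81 and 2.38 in the KO hearts. All KO hearts were above all controls; control 2 was the highest control and KO heart 3 the lowest KO. The means were 1.93 ± 0.20 (SD, n = 4) and 2.64 ± 0.23 (SD, n = 3), a difference of 0.71 with a standard error of 0.17 and a confidence interval from 0.32 to 1.104 (limma adjusted p = 0.0233; exact permutation p = 0.0286). The call was lost without control 1 (adjusted p = 0.056), control 3 (0.0579), control 4 (0.0623), KO heart 1 (0.103) or KO heart 2 (0.0729), while the difference stayed between 0.63 and 0.85 whichever heart was left out. It was also lost when dim probes were not filtered out (adjusted p = 0.0721), where 48809 features were tested.

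Mapk3, the ERK1 gene, did not pass at either probe. Its brightest probe read 2.86, 3.02, 3.12 and 3.20 in the controls and 3.05, 2.98 and 3.18 in the KO hearts, and the KO hearts fell inside the control range. The difference was 0.02 with a confidence interval from -0.29 to 0.33 (limma adjusted p = 0.913), and the other probe gave -0.10 (adjusted p = 0.596). The interval leaves out a fall or rise of the size seen for Mapk10 or Mapk7.

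The MEK genes, whose products activate ERK1, leaned in opposite directions. Map2k1 (MEK1) read 2.33, 2.46, 1.92 and 2.32 in the controls and 2.62, 2.64 and 2.50 in the KO hearts. The KO hearts were all above the controls and KO heart 3 only just so; the difference was 0.33 with a confidence interval from -0.03 to 0.70 (limma adjusted p = 0.147; exact permutation p = 0.0571). Map2k2 (MEK2) read 3.86, 3.75, 4.03 and 4.02 in the controls and 3.78, 3.72 and 3.64 in the KO hearts, which overlap at control 2 and KO heart 1. Its difference was -0.20 with a confidence interval from -0.50 to 0.10 (adjusted p = 0.268), and its other probe gave -0.31 without overlap (adjusted p = 0.0926; exact permutation p = 0.0286).

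Set against each other within hearts, Map2k1 over Map2k2 stood at 0.50, 0.58 and 0.51 relative to the control mean in the KO hearts and between -0.45 and 0.37 in the controls. The 3 KO hearts lay close together and all lay above the controls, by 0.53 on average (exact permutation p = 0.0571, adjusted 0.0714).

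**Figure D2:**
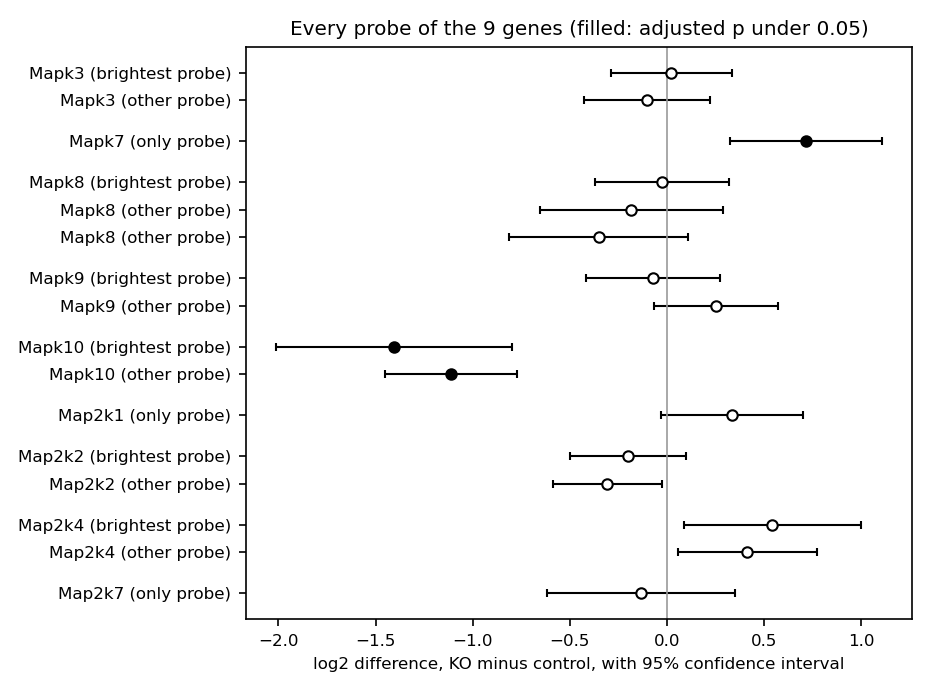
Log2 difference between KO and control hearts (horizontal axis) for each of the 16 probes of the 9 genes, with 95% confidence intervals from the limma fit over all kept probes; filled points have an adjusted p under 0.05. Both Mapk10 probes and the Mapk7 probe are filled, and the remaining 13 are open.

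**Figure D3:**
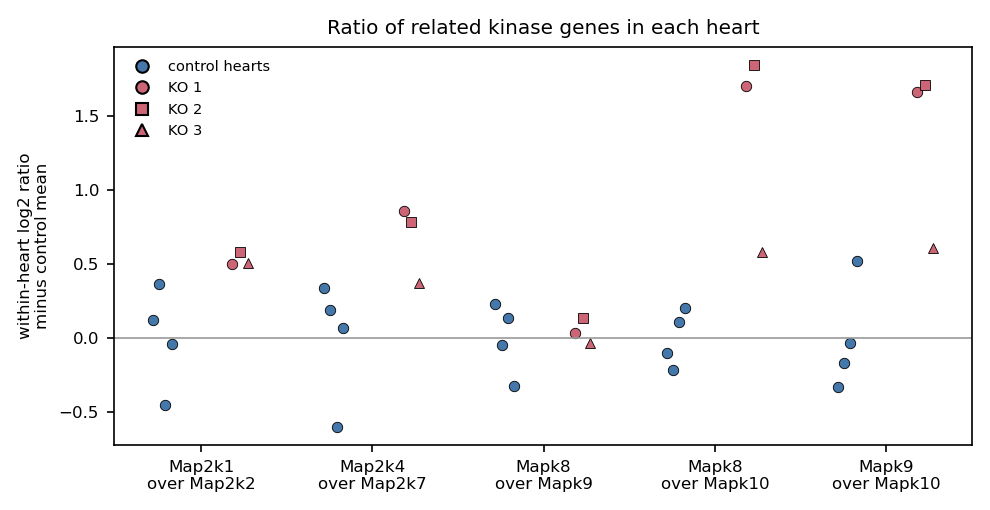
Within-heart log2 ratio of related kinase genes minus the mean of the 4 control hearts (vertical axis), for the 5 ratios examined; points are hearts. The KO hearts lie above the controls in every ratio except Mapk8 over Mapk9, where the groups overlap.

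The order of the 9 differences ran from Mapk10 (-1.40) through Map2k2 (-0.20), Map2k7 (-0.13), Mapk9 (-0.07), Mapk8 (-0.03) and Mapk3 (0.02) to Map2k1 (0.33), Map2k4 (0.54) and Mapk7 (0.71). The confidence interval of Mapk10 lies below those of all the others, while neighbours from Map2k2 to Mapk3 have intervals that overlap almost entirely. Map2k1, Map2k4 and Mapk7 also overlap with each other.

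KO heart 3 lay nearest the controls in all 4 genes whose groups did not overlap. Its departure from the control mean was -0.76 in Mapk10, 0.45 in Mapk7, 0.12 in Map2k4 and 0.24 in Map2k1, where KO hearts 1 and 2 stood at -1.73 and -1.72, 0.80 and 0.89, 0.56 and 0.94, and 0.37 and 0.39. The arrays sat in 2 rows of 1 slide, with controls 1 and 2 and KO heart 1 in the first row and the other 4 in the second. Within the first row the Mapk10 difference was -1.90 and within the second -1.08. For Mapk7 these were 0.70 and 0.77, for Map2k4 0.51 and 0.58, for Map2k1 0.23 and 0.45, and for Map2k2, whose groups overlapped, -0.03 and -0.34.

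**Figure D4:**
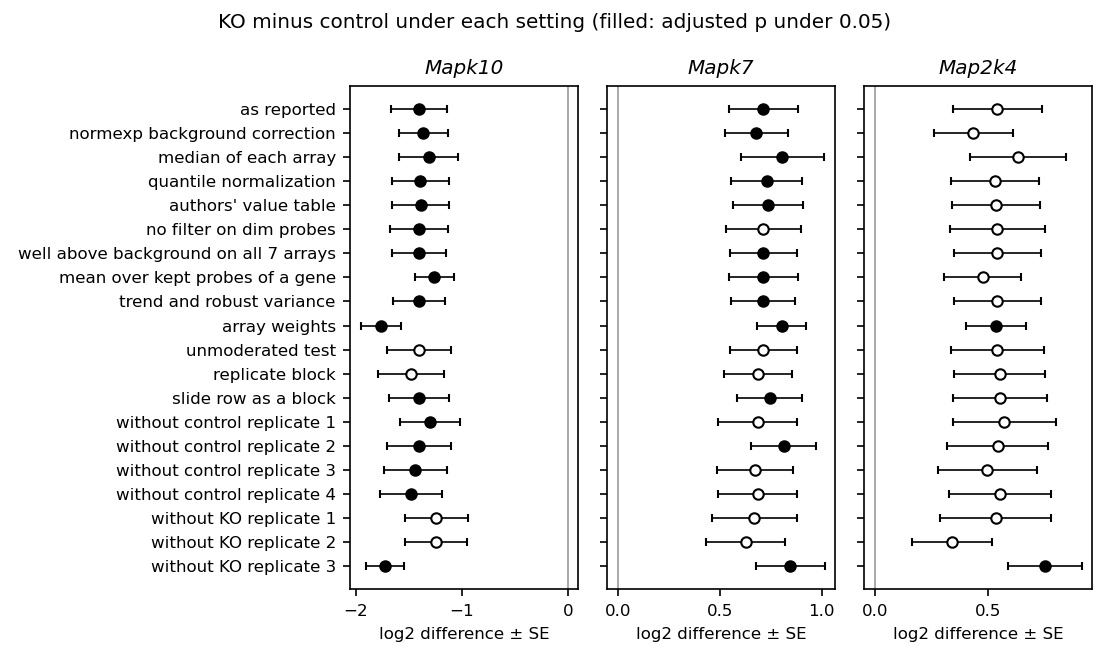
Log2 difference between KO and control (horizontal axis, ± SE) of Mapk10, Mapk7 and Map2k4 under each processing alternative and with each heart left out; filled points have an adjusted p under 0.05. All points keep their side of 0, Mapk10 stays filled under every scaling, and Map2k4 is filled only with array weights and without KO heart 3.

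By the likeness of their levels over the 7 hearts (root mean square difference of gene-centred log2 levels, among 13090 named genes), the genes nearest to Mapk7 were Sap30bp at 0.03, a binding partner of the SAP30 co-repressor subunit, and Map1s at 0.04, a microtubule-associated protein. Sap30bp differed by 0.71 and Map1s by 0.67 between the groups (limma adjusted p = 0.0247 and 0.022). Nearest to Mapk10 were Msrb1 at 0.10, a methionine sulfoxide reductase, and Myl1 at 0.12, a myosin light chain of fast skeletal muscle. Msrb1 differed by -1.29 and Myl1 by -1.44 (adjusted p = 0.0174 and 0.0157).

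Among the other kinases of these levels, 2 of the 8 reported rose and none fell, a share close to the 25.2% of all features that passed. Mapk6, the atypical kinase ERK3, read 1.18, 1.62, 1.26 and 1.25 in the controls and 2.45, 2.68 and 1.87 in the KO hearts, a difference of 1.01 (limma adjusted p = 0.0187), and its other 2 kept probes rose as well. Map2k3 (MKK3), an activator of p38, read 1.19, 1.57, 1.43 and 1.57 in the controls and 2.55, 2.56 and 1.94 in the KO hearts, a difference of 0.91 (adjusted p = 0.019). In both genes every KO heart was above every control, and KO heart 3 was again the lowest of the KO hearts. The differences of the rest were 0.22 for Mapk14, 0.28 for Mapk11 and 0.17 for Mapk12, 0.31 for Map2k6, -0.35 for the Nemo-like kinase Nlk and -0.20 for Mapk13, with adjusted p from 0.122 to 0.767. The median of the 8 was 0.25.

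Upstream of the MAP2 kinases, genes passed in both directions, and no list was tested against the 25.2% of all features that passed. From Ras to Raf, 2 of 15 measured genes rose and 1 fell (median -0.07): the GTPase Nras by 1.36 and the adaptor Shc1 by 0.64, while Araf, a Raf kinase, fell by 0.92 (limma adjusted p = 0.0146, 0.0428 and 0.0166). All 3 kept Nras probes rose, and 1 of the 3 Araf probes gave only -0.11. Of 23 MAP3 and MAP4 kinases, 1 rose and 2 fell (median -0.08). Map4k1, a kinase of blood cells, rose by 1.21, but its groups overlapped, with KO heart 2 (-1.04) below control 2 (-0.90). Tnik, a MAP4 kinase, fell by 0.76. Map3k7 (TAK1), which feeds JNK and p38, fell by 0.43 at its brightest probe, while its other 2 probes did not pass. With normexp the Tnik difference was -0.478, still past the threshold; with median scaling Tnik, Map3k7 and Mapk8ip3 did not pass (adjusted p = 0.0654, 0.13 and 0.0505). Of 14 scaffold and adaptor genes, Iqgap1 rose by 0.82 and Mapk8ip3 (JIP3), a JNK scaffold, fell by 0.52 (median -0.07).

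Downstream of ERK, 3 of 11 effectors rose and 1 fell (median -0.11). All 4 encode kinases of the RSK and MSK families, of which Rps6ka2 (RSK3) differed by -0.49 and did not pass (limma adjusted p = 0.253). Rps6ka3 (RSK2) rose by 0.81, as did its other 2 probes, and Rps6ka4 (MSK2) by 0.69, while Rps6ka5 (MSK1) fell by 1.21 (limma adjusted p = 0.0206, 0.024 and 0.0336). With normexp the Rps6ka5 difference was -0.622, and with median scaling it did not pass (adjusted p = 0.0507). Among 12 genes of ERK feedback and output, 4 rose and none fell (median 0.28), beside 10.2% of all features higher in KO. These were Ier3 by 1.84, an immediate early gene, the phosphatase gene Dusp4 by 0.85, the transcription factor Etv4 by 0.998 and the ERK phosphatase gene Dusp6 by 0.50. Dusp4 was well above background in 2 of 4 controls, and with normexp its difference was 0.226 and did not pass (adjusted p = 0.247). The other Etv4 probe gave 1.99 without passing (adjusted p = 0.0944), and as a mean over both probes Etv4 did not pass (adjusted p = 0.0729). The count of 4 in this list became 1 without control 1, 3 or 4 or KO heart 3, and 0 without KO heart 1 or 2. Phosphorylated ERK was not measured.

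Of 9 JNK substrates and targets, none rose and 1 fell (median 0.26): the transcription factor Atf2 fell by 0.53 at its brightest probe (limma adjusted p = 0.0299), and its other 3 probes lay between -0.08 and 0.05. Atf2 did not pass with median scaling (adjusted p = 0.0554) or as a mean over probes (0.364). The number of these 9 genes that passed was 2 with normexp or median scaling, 3 with quantile normalization or the authors' value table, 4 with trend and robust variance and 0 as a mean over probes, and with 1 heart left out it was 0 or 3. Of 5 genes counted as substrates or targets of ERK5, none rose and 2 fell (median -0.46), beside 15.0% of all features lower in KO. Klf2 differed by 0.34 and Klf4 by -0.05, and neither passed (limma adjusted p = 0.261 and 0.897). ERK5 activity was not measured. Mef2c, a myocyte transcription factor, fell by 0.83. Mef2a, of the same family, fell by 0.63 at its brightest probe, but another of its probes rose by 0.75 (adjusted p = 0.0164 in the fit over all probes), so the gene has no single direction here; with median scaling the brightest probe did not pass (adjusted p = 0.0584). Of the 21 genes that passed in these lists, none passed without KO heart 1, 1 without KO heart 2 and 13 without KO heart 3, and from 5 to 21 with 1 control left out; all 21 kept their sign each time.

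**Figure D5:**
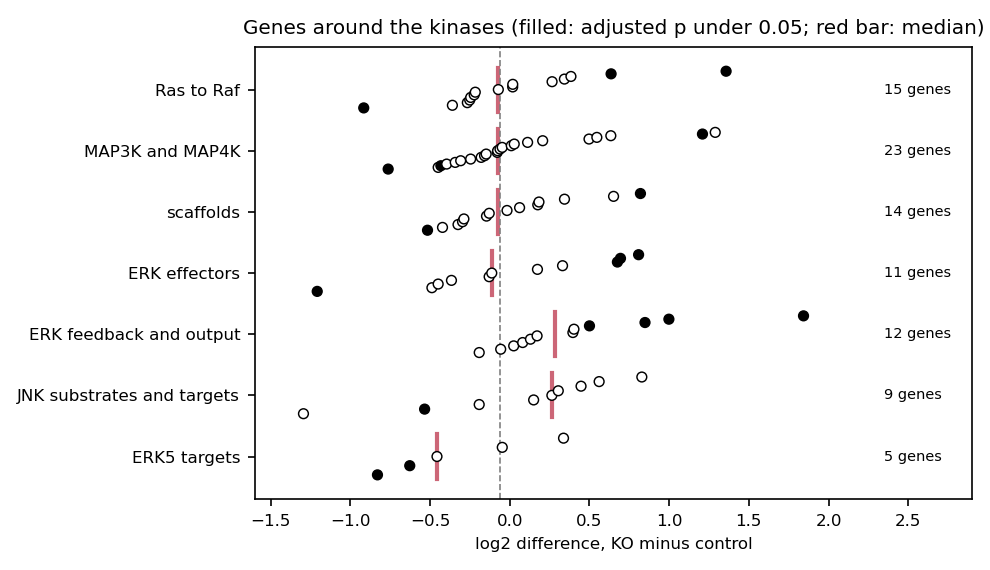
Log2 difference between KO and control (horizontal axis) of each measured gene in 7 lists of genes upstream and downstream of the kinases; filled points have an adjusted p under 0.05, red bars mark each list's median and the dashed line the median of all features (-0.06). Filled points lie on both sides of 0 in the lists from Ras to Raf through the ERK effectors, to the right in ERK feedback and output, and to the left in the JNK and ERK5 target lists.

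The apex holds many cell types, and in bulk RNA fewer cells of a type and less RNA per cell cannot be told apart. Of 8 cardiomyocyte markers, 3 (Tnni3, Mybpc3 and Ryr2) fell and none rose (median -0.41), and their mean level relative to the average over hearts was -0.06 to 0.51 in the controls and -0.50 to -0.22 in the KO hearts. Mapk10 is also a gene of neurons: of 6 measured neuron and glia markers, Th fell and none rose (median -0.68), the mean level was -0.14 to 0.40 in the controls and -0.27 to 0.03 in the KO hearts, and on no array did Syt1 stand well above background. Of 4 measured neutrophil markers 3 rose (S100a8, S100a9 and Cxcr2, median 3.23), while Csf3r differed by -0.23 and did not pass (limma adjusted p = 0.442). Cxcr2 stood well above background in 0 of 4 controls, so its control level is only a bound and it was kept through the KO hearts alone. Ly6g did not stand well above background in any heart. The mean level of the 4 markers, which includes Cxcr2, was -1.29 to -0.56 in the controls and -0.07 to 2.36 in the KO hearts. Of 8 macrophage markers, Mrc1 rose (median 0.43; controls -0.60 to 0.11, KO -0.01 to 0.83). Among fibroblast markers 1 of 6 rose (Pdgfra), with a median of 0.07 and differences on both sides of 0. Endothelial markers had 1 of 6 lower (median -0.44), and smooth muscle and pericyte markers 1 of 6 lower (Rgs5) with a median of 0.24. Lymphocyte markers had 0 of 2 passing (median -0.18) and adipocyte markers 0 of 1 (-1.66). Liver markers had 3 of 3 lower (median -3.77) and erythroid markers 2 of 2 lower (-0.88). Among the liver markers, Alb stood well above background in 4 controls and 0 KO hearts. Its KO level is therefore only a bound, and it was kept through the controls alone. Ttr stood well above background in 2 of the 3 KO hearts, and its groups overlapped. Of all features, 10.2% were higher and 15.0% lower in KO. The part of these shifts in the Mapk10 and Mapk7 differences was not tested.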

How the data were processed

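RNA from 7 hearts was hybridised to 1-colour Agilent arrays, 100 ng per labelling, per the labels. Per the file headers, the authors read the arrays with Feature Extraction 11.0.1.1, and the deposited files give the background-subtracted intensity of 62976 spots per array, 3671 of them control spots (mm9 design). The 75th percentile intensity was 342 to 471. The deposited value table holds log2 values whose scale is not stated. Its rows have a median of 0 over the arrays, its column medians lie between -0.00210 and 0.00793, and it correlated with centred scanner values at 0.986 to 0.998, so higher means more signal; it served as an alternative.

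Log2 intensities were taken minus the 75th percentile of the array's non-control spots, without outlier spots, with spots of a probe averaged. A probe was kept if 3 or more arrays of a group had it well above background (26576), and 28026 of 55681 probes had 1 RefSeq symbol and 27655 none. The brightest kept probe stood for a gene. KO and control were compared with limma 3.58.1 in R 4.3.3, adjusted by Benjamini-Hochberg over all 22344 features (threshold 0.05), and single values with exact permutation tests. The limma fit was first run on simulated data with independent noise and few changed features. That setting differs from these data, so it does not check the share of features called here. Hearts are taken as separate animals. The number of arrays limits precision.

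The named genes are the 9 kinases, the measured genes among other MAP and MAP2 kinases, and up to 3 passing genes of lowest p from each other list. To these were added 2 label checks and the 2 nearest profiles of each passing member. Dusp6, Rps6ka2, Klf2, Klf4, single markers and other probes were named after their values were seen. Some genes of the lists of other kinases and of neuron and glia markers are not reported here. Members and lists were chosen with earlier results of these data known. Alternatives covered background, scaling, filter, probe choice, variance model, replicate block, slide row and each heart left out.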

Additional observations from a re-analysis of the deposited data

Results flagged for a closer look

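Mapk7 in the 4 control hearts had 1 value far from the others: control 2 read 2.22, against 1.80 to 1.84 in the other 3, so its gap took 0.9 of the group's range. Chance gives such a value in about 1 in 20 groups, and 16 probes and 5 ratios were looked at in the controls. Without control 2 the Mapk7 difference was 0.81.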

How the results depend on the processing

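Of the 9 kinase genes, 1 passed with no filter on dim probes, 4 with array weights, 0 with an unmoderated test and 0 with a replicate block. Of all features, 1415, 11999, 90 and 9 passed under these. With 1 heart left out, 0 to 3 kinase genes passed (3 without KO heart 3, where Map2k4 was added), and 69 to 6970 features. In their deviations from the group means, same-numbered hearts correlated at 0.184, -0.223 and -0.197, and other pairs at -0.316 to 0.392. These values cannot decide whether the numbers pair the hearts. Mapk10 had an adjusted p of 0.055 unmoderated and 0.0719 with the block; Mapk7 had 0.0576 and 0.0855. With array weights Map2k4 had 0.0103 and Map2k1 0.0363. Mapk10 and Mapk7 kept their calls and directions under normexp, median, quantile and the authors' scaling. Median scaling moved the median of all features from -0.06 to 0.03 and kept 14 of the 21 list genes that passed; no filter kept 1, and the unmoderated test and the block 0.

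Genes with differences near 0 changed sign. Mapk3 gave -0.0409 as a mean over probes, -0.00134 with slide row as a block and -0.0411 to 0.0720 with 1 heart left out. Mapk8 gave 0.0653 with median scaling, 0.0173 with quantile normalization, 0.0368 in the authors' value table and -0.103 to 0.0510 with 1 heart left out. Mapk9 gave 0.0172 with median scaling, 0.0880 as a mean over probes, 0.0250 with the replicate block and -0.127 to 0.0250 with 1 heart left out. Map2k7 gave -0.278 to 0.0213 with 1 heart left out. Mapk8 over Mapk9 gave -0.275 as a mean over probes and -0.0596 to 0.125 with 1 heart left out. Of the other kinases, Map2k6 gave -0.0171 to 0.578 (below 0 without KO heart 3) and Mapk13 -0.605 to 0.150 (above 0 without control 1). The cause was not tested. The settings for the dimmer Mapk10 probe and the list genes were chosen after seeing the data. The 3 KO arrays limit the precision.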
